A study of Mus musculus with 2 samples.

Results

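The centromere-side ends of the 19 mouse autosomes were examined for differences in DNA methylation signal between hypothalamus collected at postnatal day 21 (P21) and in newborn mice (P0). Array probes separated by gaps of at most 500 bp were joined to runs of 2 or more probes. A run was counted in an end when it started within 7 Mb of the smallest probe start of its chromosome on the array. The rule uses positions alone and no measured value. The rule found 742 runs, of which 740 kept at least 2 probes after outlying spots were removed. These 740 runs held 3340 probes and stood among 18367 autosomal runs, or 18761 runs when the sex chromosomes were added. The other 17627 autosomal runs served as the comparison.

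Genomic DNA came from the hypothalami of female, non-agouti mice of mixed strain (C57BL/6J and C3H/HeJ). The same descriptions applied to both ages. P21 and P0 DNA were hybridised together on 2 two-colour arrays, called A and B here. Red dye carried P0 DNA on array A and P21 DNA on array B, and all ratios below are P21 over P0. The design text speaks of biological replicates but not of the number of animals or of pooling. Every p-value thus rests on the spread between these 2 arrays, together with a spread estimate shared over all features tested. The arrays also differ in dye, so the spread between them includes dye differences.

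Mouse chromosomes are acrocentric: the centromere lies next to an end of each chromosome, beside long arrays of repeated satellite DNA that are packed as heterochromatin. Assembled sequence begins on the far side of that repeat block, so the first probes of a chromosome lie near the repeats and not within them. In mammalian genomes, satellite repeats are usually methylated at CpG dinucleotides, and CpG islands are mostly free of methylation. The assay used a pair of restriction enzymes that recognise the same GC-rich site. SmaI removes unmethylated sites by a blunt cut, XmaI then opens the methylated ones with an overhang, and adaptors joined to the overhangs permit PCR. A ratio above 1 thus means more amplified fragment from that place at P21. It is not a percentage of methylated DNA.

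The first probes started between position 3023495 (chromosome 11) and position 4748391 (chromosome 3) on genome build mm8, which applies to every position given here. Probes carry positions but no gene names, and runs are therefore named by coordinates. Between 93.8% and 95.3% of the non-control spots of an array exceeded background clearly, by the scanner's flag, in each channel, and no spot was saturated. Both arrays were scanned on the same slide. Mean log2 ratios correlated between the arrays across the 740 end runs (Pearson's r = 0.703, Spearman's rho = 0.476), against r = 0.730 in the other autosomal runs. These are correlations across runs, which share arrays and are not independent replicates.

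Chromosome ends carried both increases and decreases of signal, in shares near those of the remaining autosomes. Of the 740 end runs, 50 were called higher at P21 (6.76%, Wilson 95% interval 5.16% to 8.80%) and 32 were called lower (4.32%, 3.08% to 6.04%). A call required a Benjamini-Hochberg adjusted p under 0.05 in limma over all 18761 runs, where 7.65% were called higher and 3.99% lower. In the other autosomal runs, 1379 were higher (7.82%) and 707 lower (4.01%). The opposite, telomere-side ends of the same chromosomes, taken over the same 7 Mb, held 1806 runs with 138 higher (7.64%) and 68 lower (3.77%). With normexp background correction and loess the ends held 28 higher (3.78%) and 5 lower runs (0.676%), against 5.93% and 1.81% elsewhere, and with normexp alone 10 higher and 0 lower. Higher calls made up 61.0% of the calls in the centromere-side ends and 66.1% in the remaining autosomal runs.

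The mean over end runs differed little from the mean over the others. On array A the ends averaged 0.029 and the others 0.041, and on array B they averaged -0.012 and 0.0085 (log2). The ends were therefore lower by 0.0123 on array A and by 0.0209 on array B, a mean difference of -0.017 ± 0.0060 (SD, n = 2). No sign permutation of 2 arrays can give a two-sided p below 0.5. The medians of the run means, -0.018 in the ends and -0.022 elsewhere, stood in the opposite order. By array, the median of the ends differed from that of the others by 0.010 on array A and by -0.013 on array B. The lower and upper quartiles of the end run means were -0.18 and 0.13. By sign, 213 end runs were above 0 on both arrays (28.8%, against 29.6% of the other autosomal runs). A further 261 were below 0 on both (35.3%, against 35.6%) and 266 had opposite signs (35.9%, against 34.6%).

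A rule of size, which involves no test, was set beside these calls. It asked that the mean log2 ratio reach 1 or -1 and that both arrays show a difference of 1.5-fold or more in that direction. In the ends 22 runs passed upward (2.97%) and 6 downward (0.811%), against 3.71% and 0.501% of all runs. In the remaining autosomal runs the shares were 3.81% and 0.488%. Without turning array A to P21 over P0, which leaves dye differences in place of age differences, the rule found 0 end runs and 8 of all 18761 runs. With array B alone the downward count rose from 6 to 16, while the upward count stayed between 21 and 23 with either array alone.

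**Figure D1:**
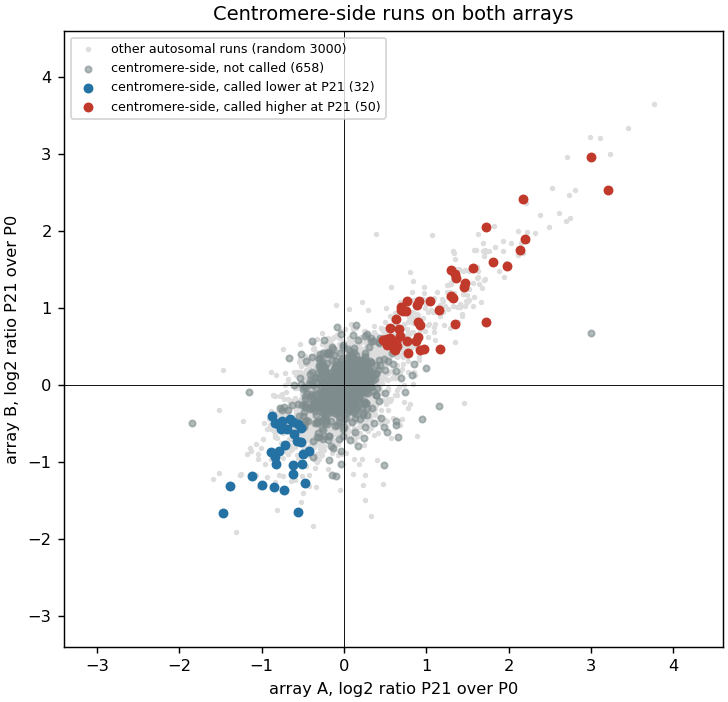
Log2 ratio of P21 over P0 on array A (x axis) and array B (y axis) for each of the 740 centromere-side runs, with a random sample of other autosomal runs in grey. The 50 runs called higher and the 32 called lower lie along the diagonal, and the called higher runs reach 3.21 on array A.

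The increases reached further from 0 than the decreases, in the ends and in the remaining autosomal runs alike. The 50 higher runs had a median log2 ratio of 0.85 and ranged from 0.52 to 2.98, with 21 at 2-fold or more and 4 at 4-fold or more. The 32 lower runs had a median of -0.72 and ranged from -1.56 to -0.53, with 7 at 2-fold or more and 0 at 4-fold or more. In the remaining autosomal runs the medians were 0.99 and -0.70, and 111 of the 1379 higher runs reached 4-fold. All probes lay above 0 on both arrays in 39 of the 50 higher runs, and all lay below 0 on both in 24 of the 32 lower runs. The calls were made on the mean of these same probes, so such agreement is likely and is not separate support. Lower runs were also dimmer: their median log2 intensity was 7.50, and that of the higher runs 9.77. At 1 of the 50 higher runs, chr8:8073437-8074119, the P0 signal was not well above background.

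The largest difference lay on chromosome 2 at chr2:10160612-10160958, a run of 4 probes 6.81 Mb from the first probe. Its log2 processed signal was 13.8 at P21 and 10.8 at P0 on array A, and 13.3 and 10.4 on array B. The log2 ratios were 3.0 and 2.96, a 7.90-fold higher signal at P21 (limma adjusted p = 0.00022), so the arrays differed far less than the ages did. On chromosome 19, chr19:6897296-6897932 had log2 ratios of 3.21 and 2.54, or 7.32-fold (adjusted p = 0.000412). Its P0 signals, 9.42 and 9.60, lay well under its P21 signals of 12.6 and 12.1. Further along, at 3.84 Mb from the first probe against 3.74 Mb, the 8 probes of chr19:6991957-6993974 gave 2.17 and 2.42, or 4.91-fold (adjusted p = 0.000372). The fourth run above 4-fold was chr16:4555416-4556252, with 2.19 and 1.89 (4.12-fold, adjusted p = 0.000492), close to the start of its chromosome at 0.896 Mb.

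Of the other runs among the 12 with the largest increases, those on chromosome 19 were chr19:5052133-5052580 with log2 ratios of 2.14 and 1.76, chr19:7155164-7155574 with 1.72 and 2.05, and chr19:8745699-8746562 with 1.98 and 1.54. Also on chromosome 19 were chr19:7489176-7490162, whose 8 probes averaged 1.57 and 1.52, and chr19:4175613-4176331 with 1.47 and 1.33. Elsewhere, chr8:4206301-4206663 gave 1.82 and 1.60, chr13:9929592-9929821 gave 1.35 and 1.45, and chr7:3767678-3768334 gave 1.30 and 1.5. Chromosome 19 thus held 7 of the 12, and in all 12 every probe of the run was higher at P21 on both arrays. Adjusted p values in limma ran from 0.00022 to 0.00129. The P21 and P0 signals of these runs did not overlap across arrays in any of the 12. The 12 were picked for large log2 ratios, which makes such separation of probes and signals likely.

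With normexp background correction and loess, 11 of the 12 kept their call. The exception, chr19:4175613-4176331, was the dimmest, with a log2 intensity of 6.88, and its log2 ratio moved from 1.4 to 0.50. With normexp alone 9 kept it. The calls lost there were those of chr19:4175613-4176331 (0.17), chr7:3767678-3768334 (0.67) and chr19:7489176-7490162 (1.36). Under normexp and loess, chr16:4555416-4556252 and chr19:6991957-6993974 moved to 1.46 and 1.70 and were still called.

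Decreases were led by chr16:10211837-10212392, a run of 4 probes 6.55 Mb from the first probe of chromosome 16. Its log2 signal was 6.98 at P21 and 8.45 at P0 on array A, and 7.07 and 8.72 on array B. The log2 ratios of -1.47 and -1.66 correspond to a 2.96-fold lower signal at P21 (limma adjusted p = 0.000831). Next came chr19:4149100-4149697 with -1.38 and -1.32 (adjusted p = 0.00126), where 1 of 2 probes was not well above background at P21. The 3 probes of chr19:7282523-7283248 gave -1.12 and -1.18 (adjusted p = 0.00241), with P21 signals of 8.24 and 8.44 below P0 signals of 9.36 and 9.62. At chr6:6438419-6439059 the ratios were -0.99 and -1.30 (adjusted p = 0.0036). In each of these 4 runs, picked for low log2 ratios, both P21 signals lay below both P0 signals.

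The arrays differed more in some of the remaining runs among the 12 lowest. At chr10:7288225-7288766 array A gave a log2 ratio of -0.56 and array B of -1.65, and at chr11:5963292-5964390 it was -0.47 and -1.27. Smaller differences came from 3 runs of 2 probes each. These were chr16:10416950-10417365 with -0.85 and -1.33, chr5:4659108-4659364 with -0.73 and -1.37, and chr16:7957525-7957589 with -0.62 and -1.15. Closer pairs of values came from chr19:6235483-6236587 (-0.83 and -1.02), chr12:3968639-3969037 (-0.84 and -0.94) and chr8:4257276-4258059 (-0.89 and -0.87). The last of these was the dimmest, with 2 of 3 probes not well above background at P21 and 1 of 3 at P0. Of the 12 lowest runs, 6 held only 2 probes, and the largest adjusted p among them was 0.0392. Their calls depended on the background correction: with normexp and loess 11 of the 12 no longer passed, and with normexp alone none passed, although all 12 log2 ratios stayed below 0. With normexp and loess they lay between -0.67, at chr16:10211837-10212392, and -0.07, at chr8:4257276-4258059. All 12 kept their calls with loess on the processed signals. When only probes bright enough to stand well above background on each array, for P21 and for P0 alike, were used, 10 of the 12 kept at least 2 probes, and all 10 were called, with log2 ratios from -1.57 to -0.89.

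**Figure D2:**
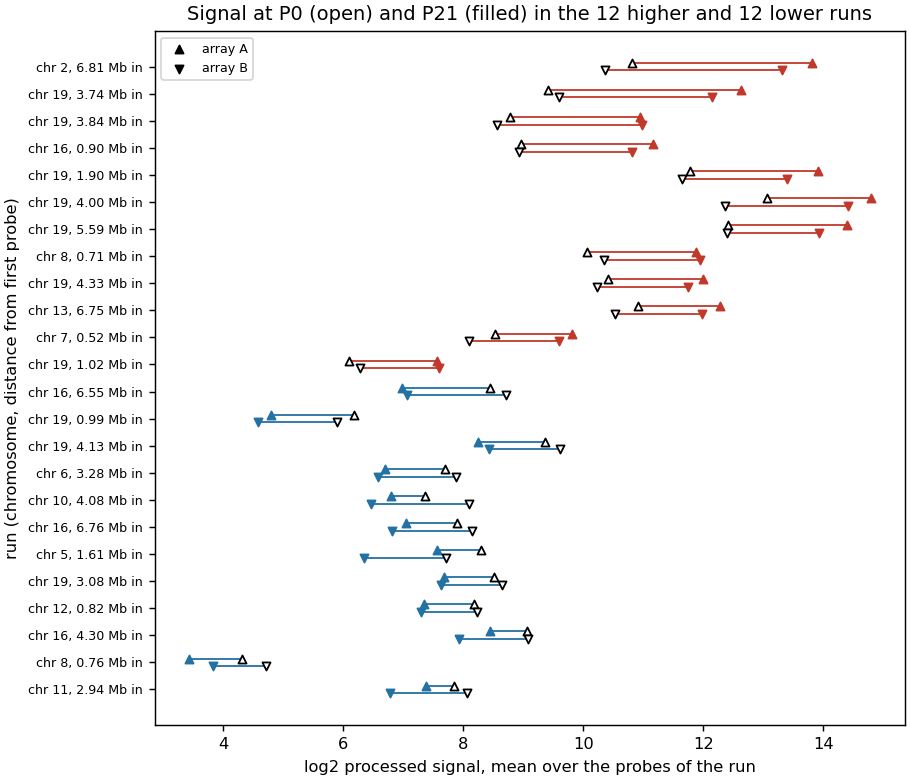
Log2 processed signal at P0 (open) and P21 (filled) on array A (upward triangles) and array B (downward triangles) for the 12 higher and the 12 lower runs, labelled by chromosome and distance from its first probe. The higher runs lie mostly at brighter signals (median log2 intensity 11.1) than the lower runs (7.50).

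Increases were spread over 15 of the 19 ends. The end of chromosome 6 had the highest share, with 4 of 29 runs called higher (13.8%) against 6.11% in the rest of that chromosome. Chromosome 12 followed with 4 of 32 runs (12.5%, against 8.72%). The lowest share was 0, in the ends of chromosomes 3, 9, 14 and 18, whose 83 runs held no call in either direction in limma. At an unadjusted p under 0.05 in limma those 83 runs held 8, of which 1 was higher, where 24.7% of all runs passed. The lowest adjusted p among the 83 was 0.0682. The share called higher lay above that of the rest of the same chromosome in 8 ends and below it in 11.

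Median log2 ratios of the ends differed little from those of their own chromosomes, and the end median was above the rest in 9 of 19. Mean ratios were above 0 on both arrays in 7 ends, below 0 on both in 5, and of opposite sign in 7. In the end of chromosome 9, array A gave a mean of -0.0913 and array B of -0.108 over 15 runs. In the end of chromosome 8, the means were 0.0775 and 0.102 over 37 runs. Decreases outnumbered increases in the ends of chromosomes 10, 13 and 16. In that order, they held 4 lower and 2 higher of 35 runs, 2 and 1 of 19, and 4 and 3 of 60. The rest of these chromosomes held 49 lower and 50 higher of 913, 36 and 44 of 671, and 20 and 36 of 461. In the end of chromosome 17, 4 of 54 runs were higher and 0 lower, against 6.71% and 4.63% in the rest of it. Across the 27 runs of the chromosome 18 end the arrays showed no positive correlation (r = -0.153). The means of those runs spanned only -0.42 to 0.33, and their median absolute difference between arrays was 0.167, against 0.197 over all 740 end runs.

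**Figure D3:**
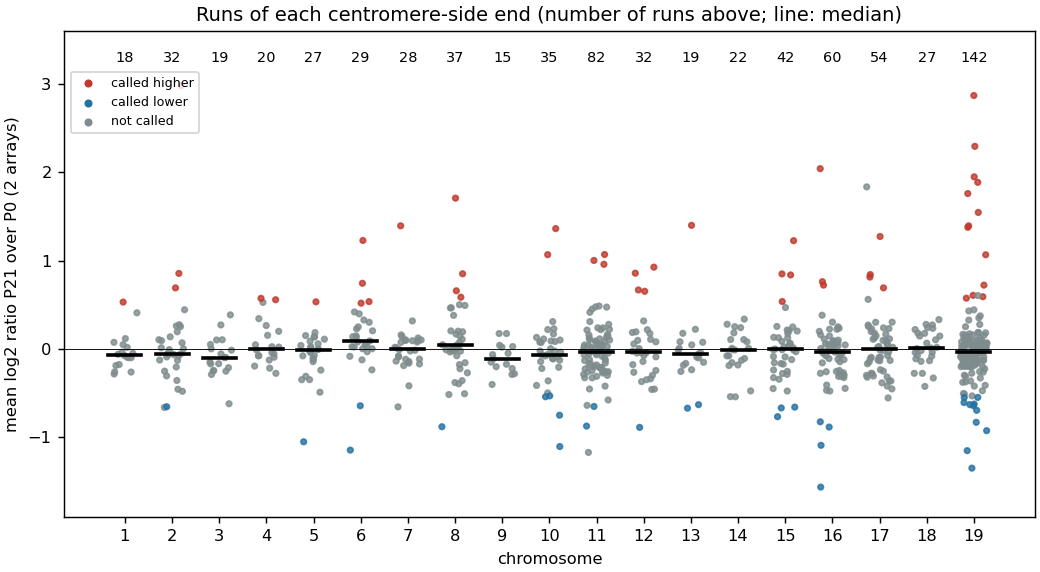
Mean log2 ratio of P21 over P0 for every run in each centromere-side end, by chromosome, with called runs coloured, the median as a line and the number of runs above. The ends of chromosomes 3, 9, 14 and 18 hold no called run, and chromosome 19 holds 142 runs with calls in both directions.

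Chromosome 19 supplied more end runs than any other chromosome. Its 142 runs included 13 called higher (9.15%, against 8.85% in the rest of the chromosome) and 11 called lower (7.75%, against 3.54%). Without chromosome 19 the other ends held 37 higher runs (6.19%) and 21 lower runs (3.51%). The rule of size then found 13 upward and 4 downward, and the mean difference from the other autosomal runs became -0.022. Chromosome 19 thus accounted for 11 of the 32 lower calls and for 9 of the 22 upward runs by size.

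Higher and lower runs were intermixed along the chromosome 19 end. At 0.993 Mb from the first probe chr19:4149100-4149697 was lower (-1.35), and at 1.02 Mb chr19:4175613-4176331 was higher (1.4). Between 3 and 5 Mb from the first probe, 7 runs were higher and 5 lower. In that stretch chr19:7052562-7053246 (-0.69, adjusted p = 0.0307) lay between chr19:6991957-6993974 (2.30) and chr19:7155164-7155574 (1.89). Likewise chr19:7282523-7283248 (-1.15) lay before chr19:7332917-7335728, whose 16 probes gave 1.36 and 1.4 (adjusted p = 0.00115). The 11 lower calls of this end had log2 intensities between 5.36 and 8.91.

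**Figure D4:**
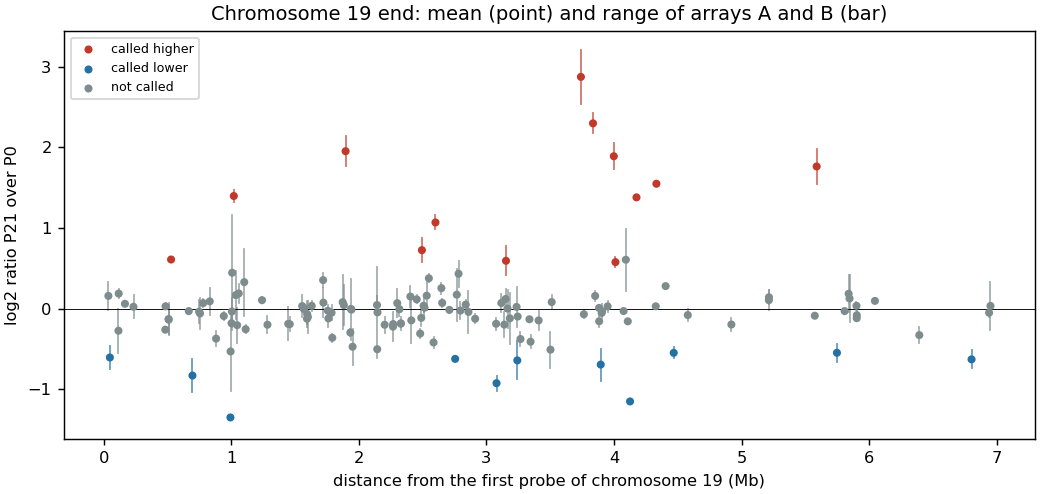
Log2 ratio of P21 over P0 for the 142 runs of the chromosome 19 end against distance from the first probe in Mb, with the mean as a point and the values of arrays A and B as the ends of a bar. The 13 higher and 11 lower runs are intermixed along the stretch.

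Each end was also tested as a block against the rest of its own chromosome. Every autosome was divided into windows of 7 Mb from its first probe, and limma was run over the 319 windows with at least 10 runs. Of these, 21 were called (6.58%), 12 higher and 9 lower, and 0 of the 19 centromere-side windows was among them. At an unadjusted p under 0.05, 4 of the 19 passed, against 96 of the 300 other windows. The lowest adjusted p values of the centromere-side windows in limma were 0.0559 for chromosome 9, and 0.0645 for chromosomes 3 and 16.

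The window differences ran from -0.126 on chromosome 9 to 0.138 on chromosome 6 (log2), the latter with a 95% interval of -0.001 to 0.276. Their median was -0.034, against -0.0037 for the 300 other windows. In 9 ends the window lay below the rest on both arrays, in 5 it lay above on both, and in 5 the arrays disagreed. Over all 19 ends the 95% intervals extended from -0.257 to 0.276, with a median distance of 0.078 from the estimate to its bound. The absence of calls depended on the settings: 12 of the alternatives tried called between 1 and 7 ends, most often chromosome 9 as lower (10 settings), chromosome 16 as lower (8) and chromosome 6 as higher (8). Those settings also called more of the windows as a whole, from 10% to 39.6% of all windows. Windows of 5 Mb gave 7 called ends of 18 (33.7% of all windows called), and normexp with loess gave 6 of 19 (27.9%).

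**Figure D5:**
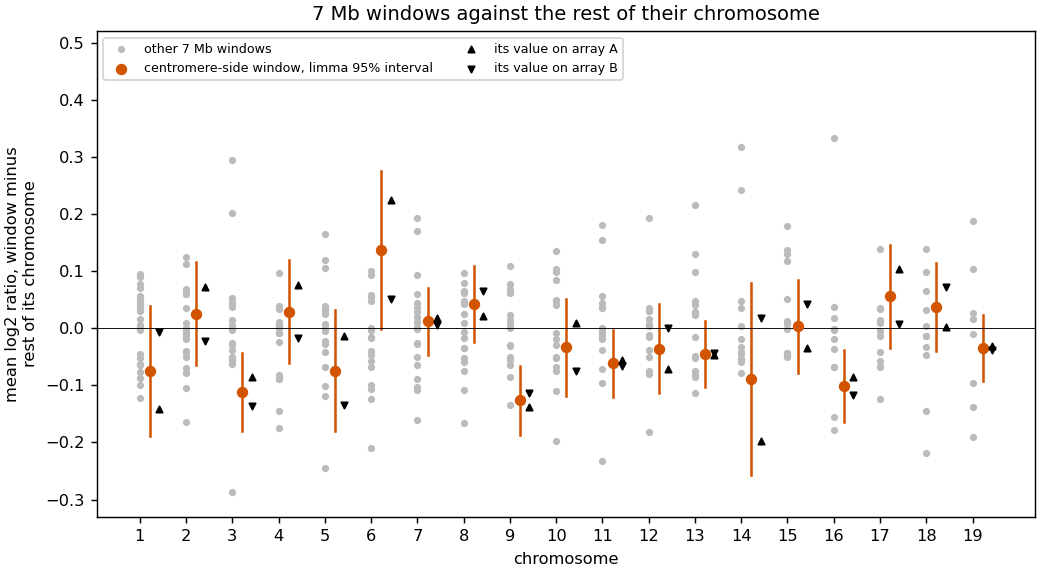
Mean log2 ratio of each 7 Mb window minus the rest of its chromosome, with the 19 centromere-side windows in orange (limma 95% intervals, array values as triangles) and other windows in grey. The centromere-side windows lie between -0.126 and 0.138, within the spread of the others.

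Calls of both kinds were found throughout the 7 Mb. From the first to the seventh Mb the ends held 147, 131, 110, 117, 88, 87 and 60 runs. Higher calls numbered 13, 4, 6, 8, 6, 8 and 5, and lower calls numbered 7, 2, 4, 8, 5, 3 and 3. Just outside, from 7 to 8 Mb, 6 of 83 runs were higher and 5 lower. Across the 740 runs the mean log2 ratio had a correlation with distance from the first probe of r = 0.0405 (rho = 0.0333), a description across runs of the same arrays. The last run inside the boundary of each end ranged from -0.42 to 1.4 with a median of -0.013, and the first run outside from -0.39 to 1.46 with a median of 0.027. In either set 2 of 19 runs were called higher.

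The run closest to the centromere on each chromosome held no call. Over the 19 first runs the log2 ratio ranged from -0.52 to 0.30 with a median of -0.020. It was above 0 on both arrays in 7 runs, below 0 on both in 6 and of opposite sign in 6. At an unadjusted p under 0.05, 3 of the 19 passed, all below 0, against 24.7% of all runs. A count of 0 calls in 19 allows a share of up to 15.8%. The nearest to a call was chr8:3493424-3493920, with -0.48 and -0.55 (limma adjusted p = 0.0502). Similar values came from chr15:3531700-3533653, with -0.47 and -0.48 (adjusted p = 0.0637), though 5 of its 6 probes were not well above background at P21. On the positive side were chr17:3040610-3041083 with 0.41 and 0.19 and chr14:3452667-3453180 with 0.24 and 0.32.

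Centromere-side ends were sparsely covered. They held 5.56 runs per Mb against 7.81 in the rest of the autosomes, and 17 of 19 ends were sparser than the rest of their own chromosome. The exceptions were chromosome 16 (8.57 against 5.27 runs per Mb) and chromosome 19 (20.3 against 8.85). The sparsest end was that of chromosome 9, with 2.14 runs per Mb. The median distance to the nearest other run was 28767.5 bp in the ends and 15487 bp elsewhere. Runs in the ends resembled the others in median span (565 and 613 bp) and mean number of probes (4.51 and 4.65), and their median log2 intensity was 9.36 against 9.65.

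The end runs were divided by brightness into 4 classes with limits set by all runs. In the dimmest class, 10 of 183 end runs were higher (5.46%, against 4.06% of the remaining autosomal runs) and 17 lower (9.29%, against 7.89%). In the second class, 14 of 212 were higher (6.60%, against 7.67%) and 13 lower (6.13%, against 3.97%). In the third class, 19 of 173 were higher (11.0%, against 12.3%) and 1 lower (0.578%, against 2.96%). In the brightest class, 7 of 172 were higher (4.07%, against 7.26%) and 1 lower (0.581%, against 1.22%). Lower calls were thus more frequent among dim than among bright runs in the ends and elsewhere. Mean log2 ratios also varied with brightness, mainly on array B. In the dimmest class, end runs averaged 0.0079 on array A and -0.195 on array B, and the others -0.034 and -0.182. In the brightest class, end runs averaged 0.023 and 0.142, and the others 0.037 and 0.144. Whether this shift bears on the lower calls was not tested. By probe number, runs of 2 probes had 4 higher (3.57%, against 4.29%) and 10 lower (8.93%, against 8.66%) of 112. Runs of 4 probes had 24 higher (6.27%, against 8.86%) and 12 lower (3.13%, against 3.33%) of 383. Runs of over 8 probes had 5 higher (10.2%, against 11.5%) and 0 lower (against 0.46%) of 49.

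The nearest neighbour of each called run was examined next. Of the 50 higher runs, 4 had a higher run as their nearest neighbour (8.0%), against 231 of 1379 (16.8%) in the remaining autosomal runs. Of the 32 lower runs, 0 had a lower neighbour, against 84 of 707 (11.9%). Neighbours were further away in the ends, so the count was repeated for neighbours within 10 kb. There, 0 of 16 higher runs in the ends had a higher neighbour, which allows a share of up to 18.8%, against 163 of 603 (27.0%) elsewhere. For lower runs the counts were 0 of 13, which allows up to 23.1%, against 65 of 387 (16.8%). At 10 to 50 kb the order was the other way for higher runs, with 3 of 17 in the ends (17.6%) against 8.72% elsewhere. The limits for a count of 0 treat runs as independent, although all runs share the same arrays. Counts in the ends were small for higher and lower runs alike. None of these comparisons was tested, so no difference between the ends and the other runs is read from them.

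The pairs that did occur were few. On chromosome 19, chr19:7155164-7155574 and chr19:7167995-7169049 (0.64 and 0.51) were 12421 bp apart. On chromosome 8, chr8:4192661-4194417 (0.92 and 0.79) lay 11884 bp from chr8:4206301-4206663. The remaining case was chr17:3283316-3283868 (0.72 and 0.97), 80307 bp from its neighbour. Mean log2 ratios of neighbours up to 2 kb apart correlated with r = 0.384 over 117 end runs and 0.455 elsewhere. From 2 to 10 kb apart the values were -0.086 and 0.108.

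A few runs differed widely between the arrays. The widest was chr17:6711209-6711590, where 2 probes gave 3.0 on array A but 0.68 on array B; the mean of 1.84 was not called (limma adjusted p = 0.0546). At chr18:9449444-9449679 the ratios were 0.49 and -1.04, at chr19:4162694-4163122 they were 1.16 and -0.27, and at chr6:6816281-6817063 they were 0.95 and -0.44. At chr11:3726353-3726603 both were below 0, at -1.85 and -0.49. All 5 were dim, with 1 probe or more not well above background in a channel. Over the 740 end runs the median absolute difference between arrays was 0.197, against 0.200 in the other autosomal runs.

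Single probes were called in smaller shares than runs. Of the 3340 probes in the end runs, 63 were higher (1.89%) and 5 lower (0.15%) in limma over 89726 probes, where 2.10% were higher and 0.0925% lower. With only probes well above background on both arrays in both channels, these counts became 175 of 3111 (5.63%) and 85 (2.73%), against 7.32% and 2.61% of all 82810 such probes.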

How the data were processed

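P21 and P0 hypothalamic DNA were compared on 2 two-colour Agilent arrays with exchanged dyes. Groups and dyes came from the labels. The deposited scanner files give log10 ratios of red over green, made by the authors from background-subtracted, dye-normalised signals, per the file headers. The deposited processed and median spot intensity values are on a linear scale, and the deposited flags (0 or 1) mark outlying, saturated and well-above-background spots. The file headers name Feature Extraction 10.5.1.1 and the submitters' processing notes Agilent Feature Extraction 9.1.3.1. The authors' deposited value table held the same log10 ratios, turned to P21 over P0, with a largest difference of 0.00496.

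Here, control spots and 800 spots flagged as outliers on either array were left out. Log10 ratios were converted to log2, turned to P21 over P0, centred on each array's median and averaged per run, so all values are relative to the median of all probes. Positions are those of the files (mm8). Runs were tested two-sided against 0 in R 4.3.3 (version 1.17.8 of the data.table package) by lmFit and eBayes of limma 3.58.1, without trend or robust fitting, with 1 residual degree of freedom plus the shared prior and Benjamini-Hochberg adjustment over all 18761 runs. Wilson intervals, and limits for a count of 0 (3 counts), cover counting error only. The number of arrays limits the precision.

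The chromosome ends, lists and tests were chosen with earlier results of these data known. The runs named are the 12 higher and the 12 lower called runs with the largest mean and the same sign on both arrays, the ends with the highest and lowest share called higher, at most 5 of the first runs, and the runs whose arrays differed most. The remaining called runs of chromosome 19, the chromosome 8 run with a dim P0 signal and the neighbouring pairs were named after their values were seen. Alternatives changed background correction, loess, centring, source of values, filters, gap, eBayes settings, features in the fit, window width and arrays. Leaving out chromosome 19 was added after seeing the data. The planned normexp correction (offset 50) on mean signals was run on the deposited median signals. The planned match of probe sequences to promoters was not run, and no gene annotation was used here. The script was tested on simulated data.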

Additional observations from a re-analysis of the deposited data

How the results depend on the processing

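The share of end runs called higher (reported count 50) lay below that of the other autosomal runs in all 17 alternatives tried. These reused the same 2 arrays, some with nearly the same values, so their agreement is not independent support. The Wilson interval of the reported share, 5.16% to 8.8%, held the 7.82% of the others. The share called lower (reported count 32) was above that of the others as reported (4.32% against 4.01%). It lay below it in 9 of 17 alternatives, for example with normexp and loess (0.676% against 1.81%). With normexp and loess the counts became 28 higher and 5 lower, the rule of size found 11 upward and 0 downward, 6 ends were called as windows, and 11 single probes were lower. With normexp alone they were 10 higher and 0 lower, 11 upward and 1 downward, and 0 lower single probes, and the end minus rest difference was -0.029. With trend and robust eBayes 57 runs were lower, 5 windows were called, and 140 probes were higher and 50 lower. Using only probes well above background gave 175 higher and 85 lower probes and 3 windows. Runs of 2 to 4 probes gave 32 higher and 1 window. Ends of 3 Mb gave 23 higher, 13 lower, 10 upward and 2 downward by size, 2 windows and a difference of -0.026. Ends of 5 Mb gave 7 windows and -0.026, and ends of 10 Mb gave 5 windows. A gap of 250 bp gave 6 windows and -0.028, and a gap of 1000 bp gave 6 windows and 2 runs downward by size. Loess on processed signals gave 3 windows, outlying spots kept gave 1, and windows of at least 20 runs gave 1. The difference was -0.0012 with the median over runs on each array and -0.023 as a mean over 19 autosomes. It was negative in 21 of 21 settings, but with the median the arrays differed in sign (0.010 and -0.013), and the medians of the run means differed by 0.0041. Without chromosome 19, chosen after seeing the data, 21 runs were lower and 13 upward by size. Leaving out either array gave 21 to 23 runs upward, 5 to 16 downward and differences from -0.021 to -0.012. Counts from limma could not be made from a single array. No paired analysis was possible because each array already holds both ages and gives a ratio. Lower runs had the dimmer signals (median log2 intensity 7.50), which limits how firmly they can be called.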

Other observations

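The same 7 Mb rule on the X chromosome, which is not among the autosomal ends, gave 43 runs. Of these, 6 were called higher at P21 (14%) and 2 lower in limma. Over the other 342 runs of the X, 0 were called higher, which allows a share of up to 0.877%, and 8 were called lower. Those 342 runs averaged -0.080 on array A and -0.138 on array B, below the median of all probes. The X end averaged 0.078 and -0.045. At an unadjusted p under 0.05, 34 of those 342 runs passed (9.94%, against 24.7% of all runs), 4 of them higher. The calls of the X end were close together: 5 of the 6 higher runs and 1 of the 2 lower runs lay among 12 runs between positions 11157413 and 11312211, a stretch of 154799 bp. The highest was chrX:11295037-11295281, with log2 ratios of 1.5 on array A and 1.45 on array B, beside chrX:11295891-11297168 with 1.16 and 1.07. Between these and chrX:11157413-11157991 (1.15 and 1.06) lay the lower run chrX:11234125-11236644, whose 15 probes gave -0.54 and -0.67. The other higher run of the X end was chrX:5639319-5639563, with 0.76 and 1.20. These runs were picked out after their values were seen, and the difference between the X end and the rest of the X was not tested.

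Within the autosomal ends, 105 probes belonged to no run. Of these, 2 were called higher and 1 lower in limma over all probes, with a mean log2 ratio of -0.044 on array A and -0.152 on array B.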
